A study of Mus musculus with 24 samples.

Results

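The 10 genes described here are members of the circadian clock: the period genes Per1, Per2 and Per3, the cryptochromes Cry1 and Cry2, the repressor Ciart (also called CHRONO), the nuclear receptors Nr1d1 and Nr1d2 (REV-ERB alpha and beta), and the output factors Dbp and Tef. They were chosen by symbol from the 56065 genes of the deposited table, and all 10 were measured above 0 in all 24 libraries. The libraries were made from choroid, the vascular layer behind the retina, a name that in the study's methods also covers the attached pigment epithelium and sclera. They came from wild type mice and Ceacam1-/- littermates, which lack exons 1 and 2 of Ceacam1 in every cell and were bred on a C57BL/6J background. Ceacam1 encodes a cell adhesion molecule of endothelial, epithelial and immune cells. By label, 4 libraries were wild type without laser (libraries 21, 22, 26 and 27), 4 were Ceacam1-/- without laser (23, 24, 25 and 28), 9 were wild type with laser (1, 2, 3, 11, 12, 13, 16, 17 and 19) and 7 were Ceacam1-/- with laser (4, 5, 6, 7, 14, 15 and 18). Laser spots break Bruch's membrane and are used to induce choroidal neovascularization, the growth of new vessels from the choroid. The labels carry the same protocol text for all libraries and give neither the time between laser and collection, nor the hour of collection, nor the sex of the mice, and the study's methods state an age of 6 to 8 weeks for mice in general and cyclic light. The values are normalized counts, that is, estimated reads scaled for library size and average transcript length, and they summed to between 23704346 and 35094410 per library.

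As background, the clock of mammalian cells is a feedback loop of transcription. The activators CLOCK (or NPAS2) and BMAL1 switch on the Per, Cry, Ciart, Nr1d, Dbp and Tef genes through E-boxes, and PER, CRY and CIART proteins then block the activators. REV-ERB proteins repress Bmal1, Npas2, Cry1 and Nfil3 through ROR elements, where ROR receptors activate, and DBP and TEF activate genes through D-boxes, where NFIL3 represses. Most of these transcripts rise and fall over a day, with Bmal1 and Dbp at nearly opposite hours and Cry1 late, so that their level in a tissue depends on when it was taken. Ocular tissues, the retina among them, have clocks of their own.

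The promoters were searched for the letters of such elements near the transcript start. The sequences below are the 200 bases before the start of the canonical transcript, read from the GRCm39 genome on the strand of the gene, in lower case with motif matches in capitals. Capitals mark the E-box CACGTG, the D-box TTATGTAA or TTACGTAA, and the ROR element TAGGTCA or TGGGTCA, each sought on both strands. Those shown hold the E-boxes of Per1, Cry1 and Ciart, the D-boxes of Per3 and a ROR element of Dbp, genes whose values by library follow.
Per1 (chr11:68989068-68989267, plus strand): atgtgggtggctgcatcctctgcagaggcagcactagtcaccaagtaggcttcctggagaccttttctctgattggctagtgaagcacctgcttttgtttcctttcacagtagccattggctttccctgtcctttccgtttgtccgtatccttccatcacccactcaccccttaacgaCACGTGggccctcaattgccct
Per3 (chr4:151129141-151129340, minus strand): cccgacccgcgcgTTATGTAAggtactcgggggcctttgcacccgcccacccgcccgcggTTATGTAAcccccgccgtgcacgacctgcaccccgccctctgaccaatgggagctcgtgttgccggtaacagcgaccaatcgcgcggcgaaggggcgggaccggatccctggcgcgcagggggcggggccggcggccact
Cry1 (chr10:85020950-85021149, minus strand): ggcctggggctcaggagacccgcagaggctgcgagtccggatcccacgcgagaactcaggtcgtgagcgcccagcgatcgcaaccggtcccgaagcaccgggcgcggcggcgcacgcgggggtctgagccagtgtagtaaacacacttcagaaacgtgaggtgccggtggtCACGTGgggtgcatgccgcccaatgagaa
Ciart (chr3:95789557-95789756, minus strand): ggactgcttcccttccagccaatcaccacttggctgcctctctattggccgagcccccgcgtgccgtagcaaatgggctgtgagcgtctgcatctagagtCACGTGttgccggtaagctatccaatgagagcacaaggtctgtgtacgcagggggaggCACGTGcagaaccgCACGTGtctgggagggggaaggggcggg
Dbp (chr7:45354312-45354511, plus strand): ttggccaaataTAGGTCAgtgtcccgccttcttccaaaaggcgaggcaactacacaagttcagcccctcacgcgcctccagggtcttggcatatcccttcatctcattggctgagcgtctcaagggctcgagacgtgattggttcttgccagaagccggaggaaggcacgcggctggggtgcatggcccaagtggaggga

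Motif positions count back from the transcript start, and the search window ran from 250 bases before to 50 bases after it. Ciart held 3 E-boxes, at -100, -42 and -28, and Per1 and Cry1 held 1 each, at -22 and -29. Tef was the fourth member with an E-box, at -138, so that 4 of the 10 had one, against 7.86% of 21599 promoters of protein-coding genes. Per3 held 2 D-boxes, at -187 and -140, and Per2 held 1, at -125, against 1.07% of all promoters with a D-box. Dbp held ROR elements at -234 (outside the printed stretch) and -189, against 6.12% of all promoters. The cyclic AMP response element TGACGTCA, present in 2.46% of all promoters, was in none of the 10 windows. These matches describe letters in the genome and not binding, and elements further away or within introns were not sought.

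Libraries were first compared for their labels and for the tissue they hold. Ceacam1 had 958, 5027, 1242 and 4596 normalized counts in the wild type libraries without laser (21, 22, 26, 27) and 405, 505, 508 and 1171 in the Ceacam1-/- ones (23, 24, 25, 28). With laser it ranged from 774 to 8367 (median 996) in wild type and from 67.8 to 905 (median 335) in Ceacam1-/- libraries. The ranges overlapped in both settings. Wild type libraries 19, 22 and 27 (8367, 5027 and 4596) and Ceacam1-/- libraries 28 and 15 (1171 and 905) were the highest of their genotypes, and these 5 also had the highest sums of the surface epithelium markers (188895, 300568, 83032, 489855 and 434537), whose part in the level of Ceacam1 was not tested. The values are per gene and do not show which exons were read. Endothelial transcripts, which mark the vessels of the choroid, were present throughout: none of the 8 markers was at 0 in any library, and Plvap was the most abundant of them. Their summed level had a median of 21054 in wild type and 28630 in Ceacam1-/- libraries without laser, and of 30664 and 27590 with laser. The 8 markers of the retinal pigment epithelium, led by Ttr, had median sums of 361332, 359562, 382366 and 173777 in the same order. The 8 myeloid markers, led by C1qa, had median sums of 5209, 6337, 17914 and 18537. With laser 7 of the 8 were higher in wild type and 4 of the 8 in Ceacam1-/- mice (limma, Benjamini-Hochberg adjusted p under 0.05). In the same fits 5.28% and 3.72% of all genes passed, higher or lower. Ceacam1-/- laser libraries 14, 15 and 18 were low in each of these sums. Endothelial sums were 8606, 17784 and 11862 there, against 27590 to 41804 in libraries 4 to 7. Pigment epithelium sums were 69145, 53689 and 39862, against 173777 to 310752. Myeloid sums were 8474, 8205 and 4944, against 18537 to 24716, and the myeloid counts above are given only with these libraries.

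Tissue from outside the choroid was present in amounts that varied between libraries. The summed normalized counts of 10 rod photoreceptor markers were 552454, 94213, 14193 and 263531 in wild type libraries 21, 22, 26 and 27, and 601473, 29391, 7184 and 19655 in Ceacam1-/- libraries 23, 24, 25 and 28. With laser they ranged from 7697 to 223537 (median 50028) in wild type. In Ceacam1-/- mice with laser they were 8748, 70998, 61764 and 149002 in libraries 4, 5, 6 and 7, but 983104, 558684 and 1047580 in libraries 14, 15 and 18. These 3 libraries stood apart from the other laser libraries, and results of the members and Bmal1 that rest on them are also given without them. Counts and fold changes of the markers keep them. Libraries 21 and 23 had sums like that of library 15 but were kept throughout, so that without the 3 the libraries richest in rod transcripts were among those without laser. The 10 skeletal muscle markers, led by Atp2a1, had median sums of 557061 and 672600 without laser and of 375502 and 122540 with laser (wild type first), with a low of 16898 in library 14 and a high of 1226100 in library 25. None of the rod or muscle markers was at 0 in any library. The 7 inner retina markers, led by Glul, had median sums of 12695, 14259, 10937 and 11872, and 1 of them in wild type without laser and 2 in wild type with laser were at 0 in some library. The 7 surface epithelium markers, led by Krt15, ranged from 126 to 489855 without laser, and up to 2 of them were at 0 in some library of a group. No marker of rods, muscle, pigment epithelium, endothelium, inner retina or surface epithelium passed the test in any comparison. For genotype with laser 22.7% of all genes had an unadjusted p under 0.05. It was found for 10 of 10 muscle markers (median log2 fold change -1.43), 7 of 8 pigment epithelium markers (-1.47) and 6 of 10 rod markers (2.02). For laser in Ceacam1-/- mice 20.0% of all genes had such a p. It was found for 9 of 10 muscle markers (-2.02), 7 of 8 pigment epithelium markers (-1.61) and 0 of 10 rod markers (2.23). The part of muscle and pigment epithelium in the results of the members was not tested beyond the covariates named. In such bulk tissue, fewer cells of a type and less RNA per cell cannot be told apart.

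Among the members, the output factor Dbp was the most abundant per length of transcript, with 2121 ± 769 normalized counts per kilobase of its canonical transcript (SD, n = 24). Nr1d1 followed with 1310 ± 316, Tef with 870 ± 192 and Nr1d2 with 569 ± 194, and each of these was above the next in 24 of 24 libraries. Cry2 (299 ± 106), Cry1 (243 ± 114) and Per3 (237 ± 84.5) formed a middle group whose order changed between libraries, Cry1 being above Per3 in 11 of 24. The activator gene Bmal1, with 266 ± 149, fell between the cryptochromes. Ciart (131 ± 62.8) was above Per1 (116 ± 51.7) in 18 of 24 libraries, and Per2 was the lowest with 73.7 ± 24.5. Within groups the members had a median SD of 0.50 on the log2 scale, against 0.59 over all genes tested. Tef was the steadiest, with an SD of 0.33, and Ciart the most variable, with 0.63. Over the 24 libraries the highest value of a member was between 2.45 times (Tef) and 5.02 times (Ciart) its lowest.

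Some members share exon sequence with a neighbour on the other strand, and the library kit is not described as keeping the strand. Nr1d1 shares 1694 bases, or 52.3% of its annotated exons, with Thra, the thyroid hormone receptor alpha gene, so reads of the pair cannot be told apart there. Thra ranged from 1901 to 3580 normalized counts and passed the test in no comparison. Dbp shares 539 bases (15.5%) with Sphk2, a sphingosine kinase gene that ranged from 297 to 1202. Ciart shares 250 bases (9.6%) with the non-coding gene C920021L13Rik. Per3 shares 154 bases (1.5%) with Uts2, which was at most 10.6, and 449 bases (4.3%) with Gm69183. Tef shares 916 bases (11.1%) with Gm62928 and 193 (2.3%) with Gm17597, Per1 334 bases (4.4%) with Gm72400, Cry2 296 bases (3.4%) with D930015M05Rik and Nr1d1 a further 17 bases (0.5%) with Gm31862, all of them non-coding genes.

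**Figure D1:**
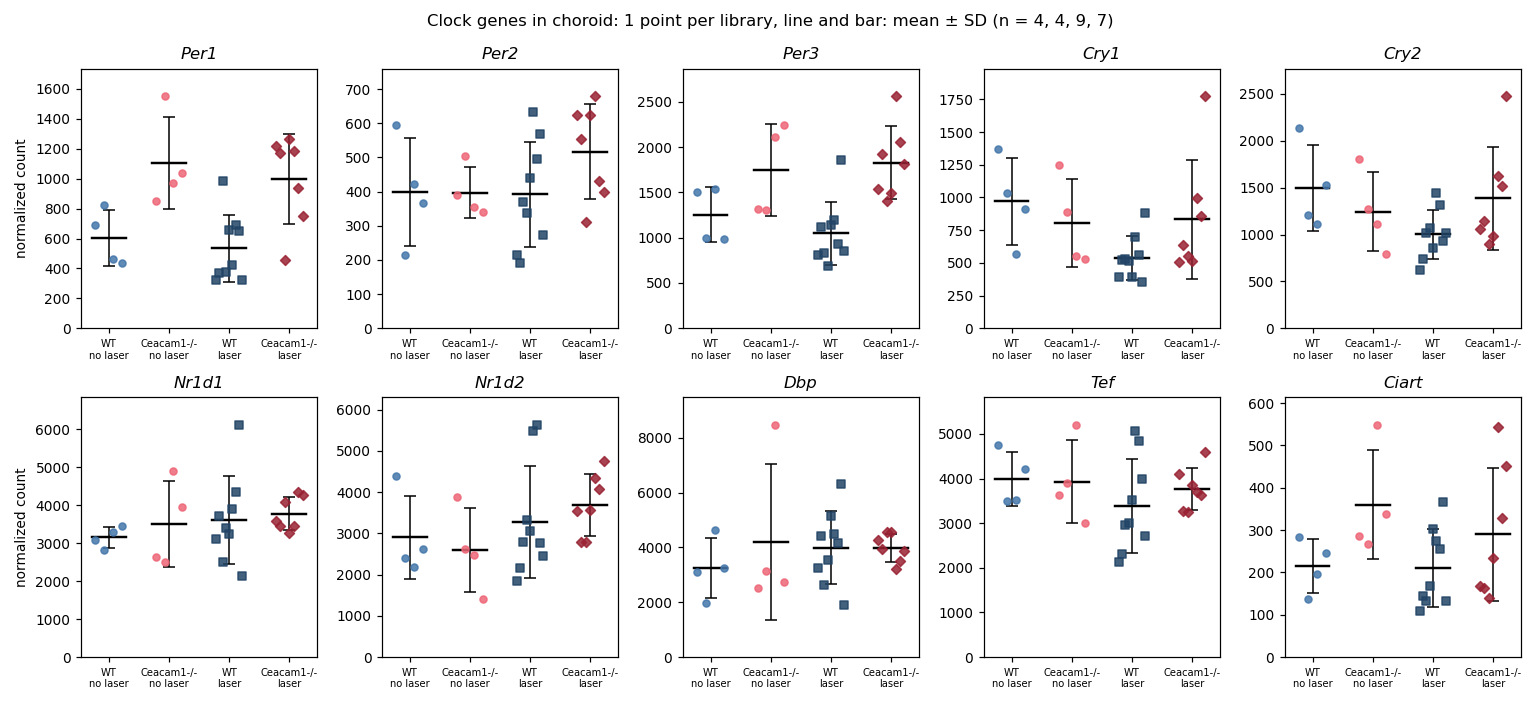
Normalized counts (vertical axes, starting at 0) of the 10 clock genes in the 4 groups (horizontal axes), with 1 point per library and the mean ± SD as line and bar. In Per1 the 4 Ceacam1-/- libraries without laser lie between 852 and 1550, above the wild type libraries at 433 to 825, and in Per3 the Ceacam1-/- laser libraries lie between 1408 and 2560.

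The first question was whether the loss of Ceacam1 alters the clock genes of the choroid at rest. Without laser, 0 of the 10 members passed the test (limma on log2 of the value plus 1, Benjamini-Hochberg adjusted p under 0.05), as did 0.0% of the 20057 genes tested. At an unadjusted p under 0.05 there was 1 member, Per1, against 1.53% of all genes. The median log2 fold change (Ceacam1-/- over wild type) was 0.08 over the members and -0.02 over all genes. The 95% interval of the log2 fold change included 0 in 9 of 10 members. Ceacam1 itself was among the genes that did not pass, so this result cannot show that the members are unchanged. The study's own model, which has sex as a covariate, did call genes between the genotypes in choroid.

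Per1, the period gene that responds fastest to light and to hormones, had 691, 825, 465 and 433 normalized counts in wild type libraries 21, 22, 26 and 27 and 852, 1550, 972 and 1035 in Ceacam1-/- libraries 23, 24, 25 and 28. Every Ceacam1-/- library was above every wild type library, a separation in this direction that 0.922% of the genes tested had, and Per1 was the 1 member that had it. The log2 fold change was 0.88 (SE 0.28, limma adjusted p = 0.999), with a 95% interval from 0.25 to 1.52. Ciart, which represses the activators, had 284, 137, 197 and 246 in wild type and 287, 267, 548 and 337 in Ceacam1-/- libraries, in the same library order. In 3 of the 4 Ceacam1-/- libraries it was above all wild type libraries, and the log2 fold change was 0.72 (SE 0.33, limma adjusted p = 0.999). Per3, a period gene with a modest part in the loop, had 1501, 993, 1542 and 985 in wild type and 1318, 1303, 2115 and 2247 in Ceacam1-/- libraries. These groups overlapped, with a log2 fold change of 0.46 (SE 0.27).

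The other members did not separate either. Per2, the period gene on which rhythms depend most, had 594, 214, 421 and 367 normalized counts in wild type and 389, 503, 355 and 339 in Ceacam1-/- libraries, a log2 fold change of 0.07 (SE 0.32). Cry1 had 1373, 1031, 565 and 911 in wild type and 1251, 891, 549 and 532 in Ceacam1-/- libraries, and in both groups its lowest values were in libraries with few rod transcripts. Its log2 fold change was -0.29 (SE 0.36), and that of Cry2 was -0.28 (SE 0.30). For Cry1 it was -0.10 without library 21 and -0.53 without library 23, and for Cry2 it was -0.08 without library 28 and -0.48 without library 23. With the rod covariate it was 0.02 for Cry1 and -0.06 for Cry2. Dbp had 3095, 1963, 4633 and 3235 in wild type and 2503, 3145, 8451 and 2721 in Ceacam1-/- libraries. The value of library 25, which also had the highest sum of muscle markers and of all values, was far from the other 3, and the log2 fold change was 0.25 (SE 0.42). Nr1d1 (0.10, SE 0.24), Nr1d2 (-0.19, SE 0.34) and Tef (-0.04, SE 0.21) had log2 fold changes near 0.

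The same question was asked after laser. With laser, 0 of the 10 members passed (limma, Benjamini-Hochberg adjusted p under 0.05), against 0.0202% of the 19757 genes tested, which is 4 genes. At an unadjusted p under 0.05 there were 3 members, Per1, Per3 and Cry1, and this held for 22.7% of all genes. The log2 fold change was above 0 in 10 of 10 members, with a median of 0.42 against 0.01 over all genes. Without libraries 14, 15 and 18 it was above 0 in 9 of 10, with a median of 0.12 against 0.02 over all genes, and Per1 and Per3 had an unadjusted p under 0.05, as did 8.4% of all genes.

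Per3 came closest to the threshold. It ranged from 689 to 1855 normalized counts (median 934) in wild type and from 1408 to 2560 (median 1810) in Ceacam1-/- mice. Of the 9 wild type libraries 8 were below all 7 Ceacam1-/- libraries, and the exception was library 17 with 1855. The log2 fold change was 0.83 (SE 0.19, limma adjusted p = 0.0825), and without library 17 it was 0.94 with an adjusted p of 0.0357 (limma), in a fit that called 25 genes (0.127%) against 4 (0.0202%) with all libraries. Without libraries 14, 15 and 18 it was 0.65 (limma adjusted p = 0.363). Per1 ranged from 324 to 982 (median 423) in wild type and from 453 to 1263 (median 1170) in Ceacam1-/- mice. Library 6 had the lowest Ceacam1-/- value, and 4 of the 7 Ceacam1-/- libraries were above all wild type libraries. The log2 fold change of Per1 was 0.93 (SE 0.27, limma adjusted p = 0.119), and it was 0.94 without libraries 14, 15 and 18.

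For the cryptochromes and Ciart the difference was near or below 0 without libraries 14, 15 and 18, and small under several other settings. Cry1 ranged from 356 to 878 (median 524) in wild type with laser. In Ceacam1-/- mice with laser it had 506, 634, 553 and 515 normalized counts in libraries 4, 5, 6 and 7, and 996, 859 and 1773 in libraries 14, 15 and 18. Its log2 fold change was 0.54 (SE 0.26, limma adjusted p = 0.219), and 0.09 without those 3 libraries. Cry2 ranged from 622 to 1439 (median 1019) in wild type and had 1062, 1142, 901 and 986 in libraries 4 to 7 and 1622, 1516 and 2474 in libraries 14, 15 and 18. Its log2 fold change was 0.43 (SE 0.21), and 0.07 without them. That of Ciart was 0.41 (SE 0.33), and -0.16 without them, and its values in libraries 14, 15 and 18 were 544, 328 and 452 against 140 to 234 in libraries 4 to 7. With the rod markers as covariate in all 16 libraries the log2 fold change was 0.11 for Cry1, 0.17 for Cry2 and 0.20 for Ciart. With the muscle markers as covariate it was 0.06, 0.15 and 0.06, and with array weights 0.13, 0.05 and 0.06. Which of these tissues the values follow was not tested. Per2 (0.46, SE 0.26), Nr1d2 (0.25, SE 0.22), Tef (0.20, SE 0.18), Nr1d1 (0.12, SE 0.17) and Dbp (0.07, SE 0.20) overlapped between the genotypes. Without the 3 libraries their log2 fold changes were 0.48, 0.04, 0.15, 0.05 and 0.20.

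When both settings were combined, the genotype effect averaged over the laser labels in a fit of all 24 libraries was called for 0 members, against 0.0401% of the 19950 genes tested. At an unadjusted p under 0.05 there were 3 members, Per1, Per3 and Ciart, against 8.84% of all genes. Per1 had a log2 fold change of 0.91 (SE 0.22, limma adjusted p = 0.279), Per3 of 0.65 (SE 0.16, limma adjusted p = 0.328) and Ciart of 0.56 (SE 0.27, limma adjusted p = 0.552). The median was 0.14 over the members and 0.02 over all genes. Without libraries 14, 15 and 18 the log2 fold change was 0.91 (SE 0.24) for Per1, 0.56 (SE 0.17) for Per3 and 0.28 (SE 0.24) for Ciart, and only Per1 and Per3 then had an unadjusted p under 0.05, as did 6.0% of all genes. This average was chosen after the values were seen. The effect of genotype did not differ detectably by laser: the interaction of laser and genotype called 0 members and 0.0% of genes, and at an unadjusted p under 0.05 it held 0 members and 6.22% of genes. Its 95% interval for Per1 ran from -0.85 to 0.95, and for Cry1, with an estimate of 0.83, from -0.11 to 1.77. Without libraries 14, 15 and 18 the estimate for Cry1 was 0.38 (SE 0.40). It ranged from 0.088 to 0.83 over the alternatives other than single libraries left out, and from 0.63 to 1.07 over those.

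**Figure D2:**
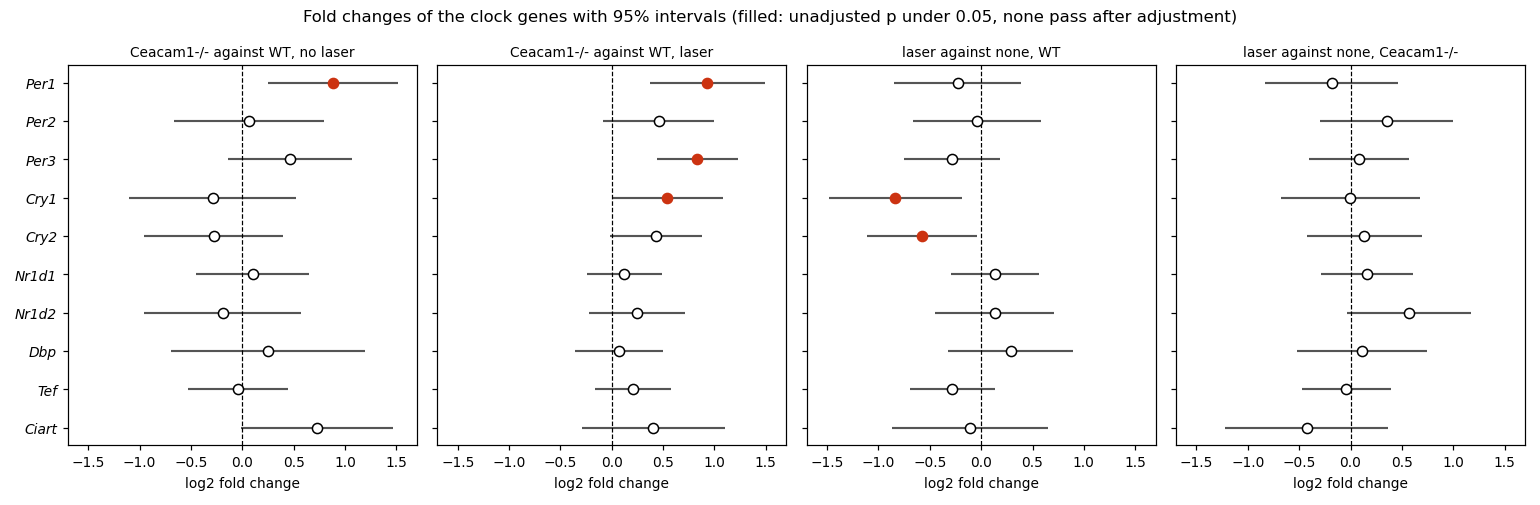
Log2 fold changes (horizontal axes) of the 10 clock genes (vertical axis) with 95% intervals from limma for genotype without and with laser and for laser in each genotype. Filled points had an unadjusted p under 0.05: Per1 at 0.88 without laser, Per1, Per3 and Cry1 at 0.93, 0.83 and 0.54 with laser, and Cry1 and Cry2 at -0.83 and -0.57 for laser in wild type.

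The next comparison was of libraries with laser and libraries without. Those with laser are numbered from 1 to 19 and those without from 21 to 28. An hour of collection or a step of processing that differed between them cannot be told apart from laser. In wild type mice 0 of the 10 members passed, against 5.28% of the 19950 genes tested (limma, Benjamini-Hochberg adjusted p under 0.05). At an unadjusted p under 0.05 there were 2 members, both cryptochromes, against 20.0% of all genes. The median log2 fold change (laser over none) was -0.17 for the members and -0.10 over all genes. Cry1 was below all 4 libraries without laser in 7 of 9 laser libraries, with 356 to 878 (median 524) against 565 to 1373, and its log2 fold change was -0.83 (SE 0.31, limma adjusted p = 0.129). Cry2 was below all 4 in 7 of 9, with 622 to 1439 against 1112 to 2135, and its log2 fold change was -0.57 (SE 0.26, limma adjusted p = 0.213). Fitted to the 2 wild type groups alone, Cry1 had an adjusted p of 0.0469 (limma), in a fit that called 11.6% of all genes. The cryptochromes also passed with a muscle covariate or with array weights, which called 3584 and 6505 of the 19950 genes. They did not pass with a rod covariate, which called 6.58% and gave -0.54 for Cry1 and -0.39 for Cry2. Per1, Per2, Per3 and Ciart, the other repressors, had log2 fold changes of -0.23, -0.04, -0.29 and -0.11. Those of Nr1d1, Nr1d2, Dbp and Tef were 0.13, 0.13, 0.29 and -0.28. With single libraries left out the value was -0.37 to -0.063 for Per1, -0.40 to -0.18 for Per3 and -0.36 to -0.19 for Tef. For Nr1d1 it was 0.032 to 0.22, for Nr1d2 0.015 to 0.35 and for Dbp 0.069 to 0.48.

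In Ceacam1-/- mice 0 members passed, against 3.72% of the 19950 genes, and 0 had an unadjusted p under 0.05, against 20.0%. The median log2 fold change was 0.10 over the members and 0.02 over all genes, with 6 of 10 members above 0. Without libraries 14, 15 and 18 the median was -0.10 over the members and -0.04 over all genes, 4 of 10 members were above 0, and 1 member (Ciart) had an unadjusted p under 0.05, against 23.9% of all genes. That fit kept library 23, the Ceacam1-/- library without laser that was rich in rod transcripts, as did the other laser fits without the 3. With libraries 14, 15 and 18 kept, the largest log2 fold change of a member was that of Nr1d2, which represses Bmal1 together with Nr1d1. Nr1d2 had 3882, 2630, 2476 and 1414 normalized counts without laser and 2786 to 4759 (median 3565) with laser. Its log2 fold change was 0.57 (SE 0.29, limma adjusted p = 0.276), and 0.37 without libraries 14, 15 and 18. It was 0.31 without library 28 and 0.79 without library 23. Cry1 had a log2 fold change of 0.00 (SE 0.33) with these libraries and of -0.46 (SE 0.30) without them, and Ciart of -0.43 (SE 0.38) and -0.99 (SE 0.36, limma adjusted p = 0.0881). These laser effects share no libraries with those in wild type mice but were fitted with one estimate of the spread.

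Of 25 further genes of the clock, from 6 lists, all were tested. For genotype none passed in either setting or over both. For laser in wild type mice 1 was lower and 0 higher, and for laser in Ceacam1-/- mice 0 passed, where 5.28% and 3.72% of all genes did, so that the list did not hold more calls than the background. The gene was Nfil3, the repressor at D-boxes. Nfil3 had 866, 881, 574 and 825 normalized counts in wild type libraries without laser and 174 to 523 (median 359) with laser, without overlap, a separation in this direction that 1.75% of the genes tested had. It fell by 1.07 on the log2 scale in wild type (SE 0.27, limma adjusted p = 0.0180), and in Ceacam1-/- mice its log2 fold change was -0.83 (SE 0.28, limma adjusted p = 0.0900). The call changed with single libraries: without library 21, 22 or 27 the wild type adjusted p was 0.0762, 0.0640 or 0.0674, and without library 23 that in Ceacam1-/- mice was 0.0240 (limma). The share of all genes that passed moved with it, to 2.4%, 3.62% and 2.78% in wild type and to 12.5% in Ceacam1-/- mice.

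Among the activators, Bmal1 had 2213, 1967, 1221 and 1596 normalized counts in wild type without laser and 390 to 1506 (median 637) with laser. Its log2 fold change was -1.33 (SE 0.40, limma adjusted p = 0.0564). It passed in the 2 wild type groups fitted alone (limma adjusted p = 0.0109), and also with the rod markers as covariate, with a log2 fold change of -0.93 (limma adjusted p = 0.0121), where 11.6% and 6.58% of all genes did. In Ceacam1-/- mice it had 2114, 1421, 762 and 860 without laser, 485, 695, 652 and 613 with laser in libraries 4, 5, 6 and 7, and 2191, 1634 and 2205 in libraries 14, 15 and 18. The log2 fold change there was -0.23 (SE 0.42), and -0.97 (SE 0.36, limma adjusted p = 0.0947) without these 3. With the rod covariate it was -0.83 and passed (limma adjusted p = 0.0465), as did 4.8% of all genes. The interaction was 1.10 (SE 0.58, limma adjusted p = 0.640), 0.36 without them and 0.11 with the rod covariate. Npas2, the relative of Clock, had a log2 fold change with laser of -0.89 in the wild type (limma adjusted p = 0.231) and -1.35 in the knockout (limma adjusted p = 0.0794). With array weights it passed in both (limma adjusted p = 0.0448 and 0.00560), where 32.6% and 17.8% of all genes did. Clock itself had -0.40 and -0.06, and Bmal2 -0.02 and 0.27.

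Of the other lists, the ROR receptors Rora and Rorb passed in no comparison, and Rorb, abundant in retina, ranged over 49.0 times. Of the relatives and opponents of the output factors, Hlf, Bhlhe40 and Bhlhe41 passed in no comparison, although Bhlhe40, a repressor at E-boxes, was lower in every Ceacam1-/- library (1986 to 2728) than in every wild type library (2771 to 3360) without laser, as were 0.434% of the genes tested. The 6 kinases and ubiquitin ligases that set the life of PER and CRY proteins (Csnk1d, Csnk1e, Gsk3b, Fbxl21, Btrc and Fbxw11) had median log2 fold changes of -0.13 and 0.15 for laser in wild type and Ceacam1-/- mice, and 0 passed. Of the 4 modulators (Cipc, Usp2, Timeless and Tipin) and of the 5 rhythmic outputs (Wee1, Nampt, Coq10b, Lonrf3 and Hif3a) 0 passed. Coq10b, which acts in the respiratory chain, came closest with a log2 fold change of 0.52 for laser in Ceacam1-/- mice (limma adjusted p = 0.0536). Without libraries 14, 15 and 18 it passed with 0.59 (limma adjusted p = 0.00711), as did 10.2% of all genes. It also passed with the filter of 50, array weights, and the muscle and rod covariates, where 4.88%, 17.8%, 2.64% and 4.8% of all genes did. Without library 14, 18 or 23 it passed as well, where 3.41%, 3.75% and 12.5% did. Its highest adjusted p with a single library left out was 0.208 (limma). Of 6 genes that glucocorticoids induce (Fkbp5, Tsc22d3, Zbtb16, Sgk1, Errfi1 and Klf9), 0 passed in any comparison, and their median for genotype was 0.12 without and 0.05 with laser. In the genotype tests without and with laser, 0.0% and 0.0202% of all genes passed. Zbtb16 had an unadjusted p under 0.05 for laser in both genotypes (limma). Its log2 fold change was -1.28 in wild type and -1.51 in Ceacam1-/- mice. Such a p was found for 20.0% of all genes in each genotype. Glucocorticoids also induce Per1, and their part in its values was not tested.

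**Figure D3:**
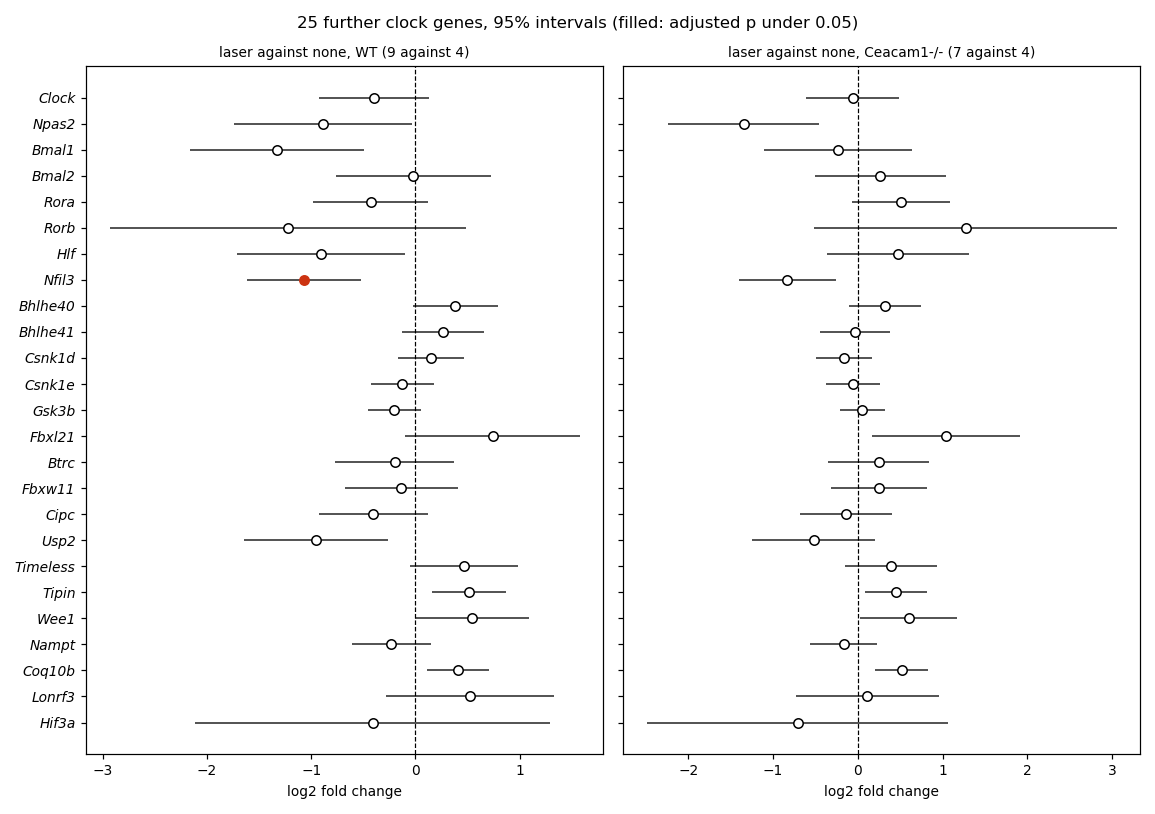
Log2 fold changes (horizontal axes) for laser against none with 95% intervals from limma for 25 further clock genes (vertical axis), in wild type (left) and Ceacam1-/- mice (right). The 1 filled point, past the adjusted threshold, is Nfil3 at -1.07 in wild type.

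The hour at which the choroids were taken is not in the labels, so the members were also compared with Bmal1 library by library, after subtraction of each group's mean. Cry1 followed Bmal1 closely, with a Pearson's r of 0.88 over 24 libraries (two-sided permutation p = 1e-05, the smallest that 100000 permutations can give, Benjamini-Hochberg adjusted p = 1e-04 over the 10 members) and a Spearman's rho of 0.88 (permutation p = 1e-05). Within the 4 groups r was 0.98 and 0.99 without laser, and 0.79 (n = 9, exact permutation p = 0.0125) and 0.91 (n = 7, exact permutation p = 1.98e-04) with laser, wild type first. Cry2 had an r of 0.67 (permutation p = 0.00167, adjusted p = 0.00557) and a rho of 0.68 (permutation p = 0.00144). Dbp went the other way, with an r of -0.65 (permutation p = 2e-05, adjusted p = 1e-04) and a rho of -0.70 (permutation p = 5e-05). Its r was below 0 in each group, at -0.74 and -0.65 without laser, and at -0.91 (n = 9, exact permutation p = 0.00102) and -0.83 (n = 7, exact permutation p = 0.0302) with laser. Nr1d1 had an r of -0.42 (permutation p = 0.0375, adjusted p = 0.0936), and Nr1d2 of 0.36 (adjusted permutation p = 0.158). So strong a link with Bmal1 was common: 23.4% of the 19950 genes had an r at least as far from 0 as that of Dbp, the weakest of the 3 that passed. The median absolute r with Bmal1 was 0.27 over the members and 0.45 over all genes. The period genes, Tef and Ciart had r between -0.19 and 0.15, with adjusted permutation p of at least 0.642. Only Cry1, Cry2 and Dbp had the same sign in all 4 groups, and r of Cry2 was 0.24 in wild type with laser against 0.70 to 0.89 in the others. Nr1d1 had -0.61, -0.90, -0.72 and 0.45, and Per1 ran from -0.39 to 0.78 and Per2 from -0.37 to 0.53. In Per3 and Ciart the groups also differed in sign: r in Per3 was -0.20 and -0.92 without laser and -0.71 and 0.77 with laser (wild type first), and in Ciart 0.12, -0.77, -0.66 and 0.92, differences that were not tested. Without the libraries farthest from the median of Bmal1 (21 and 18), r was 0.87 for Cry1, 0.59 for Cry2 and -0.71 for Dbp.

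**Figure D4:**
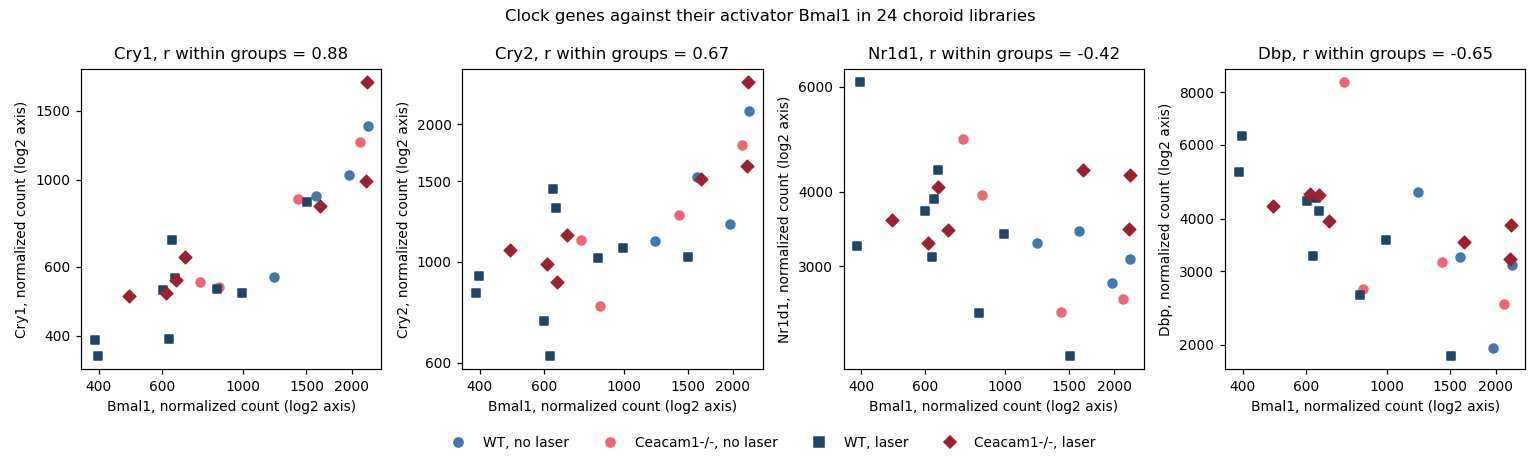
Normalized counts of Cry1, Cry2, Nr1d1 and Dbp (vertical axes) against Bmal1 (horizontal axes) on log2 axes, with 1 point per library and group by colour and shape. Cry1 rises with Bmal1 (r = 0.88 within groups) and Dbp declines (r = -0.65), and the 3 Ceacam1-/- laser libraries 14, 15 and 18 lie at the right with Bmal1 between 1634 and 2205.

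Libraries 14, 15 and 18 formed a cluster in Bmal1 apart from libraries 4 to 7. When they were left out, r over the other 21 libraries was 0.85 for Cry1 and -0.77 for Dbp, 0.46 for Cry2 (adjusted permutation p = 0.124) and -0.74 for Nr1d1 (adjusted permutation p = 0.0133). Per3, with -0.66, and Ciart, with -0.56, then passed as well (adjusted permutation p = 0.0208 and 0.0477), and 21.8% of all genes had an r at least as far from 0 as that of Ciart. The median absolute r was then 0.51 over the members and 0.36 over all genes. The same libraries differed in tissue, and Bmal1 itself had an r of 0.86 with the mean of the rod markers and of -0.67 with the mean of the muscle markers (adjusted permutation p = 1.1e-04 and 0.00572 over 22 such correlations). Rod markers had an r of 0.85 with Cry1, 0.66 with Cry2 and -0.56 with Dbp (rho 0.84, 0.68 and -0.51, adjusted permutation p = 1.1e-04, 0.0106 and 0.0376). Muscle markers had an r of -0.59 with Cry1 (rho -0.51, adjusted permutation p = 0.0413), and no other member passed with them. The share of all genes with links of this size to the rod or muscle markers was not counted. Without libraries 25 and 14, the farthest in rod markers, r with these was 0.84 for Bmal1, 0.84 for Cry1, 0.67 for Cry2 and -0.46 for Dbp. The hour of collection is not in the labels, and whether the members follow Bmal1 beyond what both share with the rod markers was not tested.

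The ratio of Dbp to Bmal1 does not depend on the scale of a library. Its log2 value was 0.48, 0.00, 1.92 and 1.02 in wild type libraries 21, 22, 26 and 27 and 0.24, 1.15, 3.47 and 1.66 in Ceacam1-/- libraries 23, 24, 25 and 28. With laser it ranged from 0.32 to 3.99 (median 2.68) in wild type, and in Ceacam1-/- mice it was 3.14, 2.51, 2.80 and 2.90 in libraries 4, 5, 6 and 7 and 0.55, 1.10 and 0.80 in libraries 14, 15 and 18. The mean was 1.62 higher with than without laser in wild type mice (two-sided exact permutation p = 0.0280, 0.112 after Benjamini-Hochberg adjustment over 4 comparisons), with library 19 as the lowest laser value. Without library 19 the difference was 1.88 (adjusted exact permutation p = 0.0242). The rod markers had a median log2 fold change of -1.40 for laser in wild type, although none passed the test. Their r was 0.86 with Bmal1 and -0.56 with Dbp, and their part in the ratio was not tested. The differences between genotypes were 0.77 without laser (exact permutation p = 0.429, where the smallest possible is 0.0286) and -0.50 with laser (exact permutation p = 0.382), and the latter was 0.36 without libraries 14, 15 and 18. The former was 0.16 without library 25 and 1.24 without library 23. For laser in Ceacam1-/- mice it was 0.34 (exact permutation p = 0.642), and 1.21 without these 3.

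The members were last compared with each other, again within groups over 24 libraries. Of 45 pairs 36 had a positive r, the median r was 0.30, and 16 pairs passed after Benjamini-Hochberg adjustment over the pairs (permutation test), 15 of them positive. Over all pairs of the 19950 genes 49.6% had a positive r, and 18.3% had an r at least as far from 0 as the weakest of the 16. The strongest links were Cry2 with Nr1d2 (r = 0.86), Cry1 with Cry2 (0.83), Nr1d2 with Tef (0.79), Nr1d1 with Dbp (0.74) and Per2 with Tef (0.70). Per3 with Ciart and Tef with Ciart followed with 0.68 each, and Cry2 with Tef and Nr1d1 with Per3 with 0.62 each. Cry1 passed with Cry2 and Nr1d2 but had an r of 0.20 with Tef (adjusted permutation p = 0.497). Ciart passed with 6 of the 9 other members, and without libraries 14, 15 and 18 with 5. The 1 negative pair that passed was Cry1 with Dbp, at -0.53. Without libraries 14, 15 and 18, 34 of the 45 pairs had a positive r, the median r was 0.33 and 15 pairs passed, 12 of them among the 16. Over all pairs of genes 49.7% were then positive, and 8.88% had an r at least as far from 0 as the weakest of the 15. The 4 pairs lost were Cry1 with Nr1d2, Ciart with Cry2, Ciart with Nr1d2 and Cry1 with Dbp (adjusted permutation p = 0.0965, 0.334, 0.153 and 0.0505). In the same order r went from 0.57 to 0.53, from 0.55 to 0.33, from 0.52 to 0.46 and from -0.53 to -0.60. With all 24 libraries Per1 passed with no other member, its highest r being 0.52 with Per2 (adjusted permutation p = 0.0510).

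**Figure D5:**
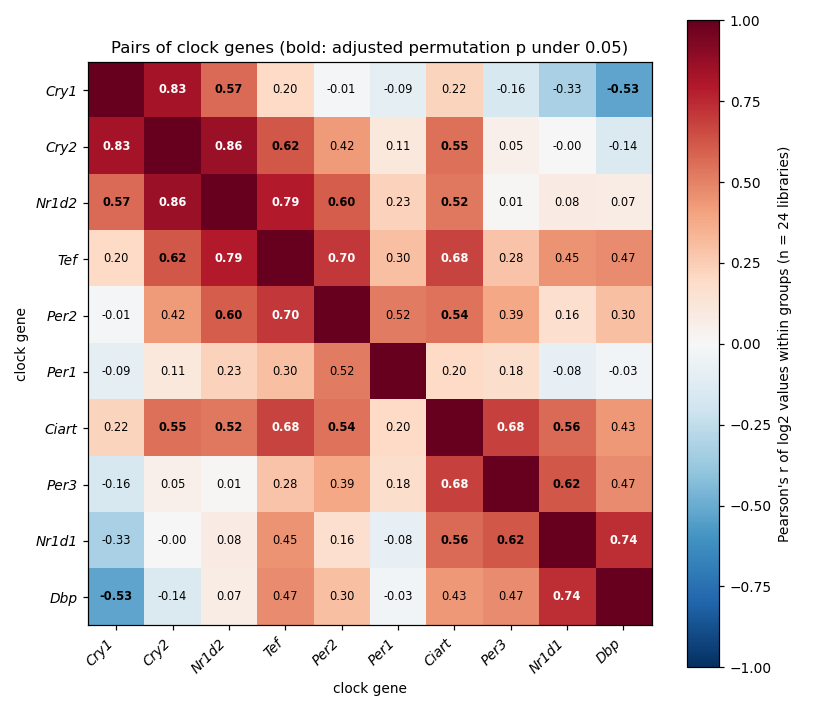
Pearson's r of log2 values within groups over 24 libraries for the 45 pairs of clock genes (both axes), in bold where the adjusted permutation p was under 0.05. The highest values are those of Cry2 with Nr1d2 (0.86) and Cry1 with Cry2 (0.83), and the 1 negative value in bold is that of Cry1 with Dbp (-0.53).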

How the data were processed

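RNA from choroid was sequenced by the authors from SMART-Seq libraries, made from full-length cDNA of small amounts of mRNA. Per the submitters' processing notes and the methods, reads were checked with FastQC 0.11.5, pseudo-aligned to GRCm39 with Salmon 1.10.3 and imported into DESeq2 1.44.0. The authors scaled the estimated reads of each gene for library size and average transcript length, and the signal deposited for 56065 genes is the resulting normalized count. Whole reads could not be recovered from them, so no count model was used. The methods mention the removal of an outlier library without naming it. Gene identifiers were matched to the GRCm39 annotation (55563 of 56065, 99.1%), which gave the symbols, positions and transcript lengths. The overlaps and the promoter sequences come from the same genome and annotation.

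Groups were taken from the labels, which do not say whether libraries come from separate mice, so that p-values measure the spread between libraries. limma 3.58.1 (R 4.3.3), with its variance trend, gave the differences on the log2 scale after 1 was added to each value, for genes with a mean of at least 10 in the libraries of the fit. The p-values were adjusted by the Benjamini-Hochberg method over all genes tested, with a threshold of 0.05. Genotype was fitted in the 8 libraries without laser and in the 16 with laser, and laser and the interaction in all 24. The study's model has sex as a covariate, which the labels do not give. The method was tested on simulated data, with results that are not given here. Correlations used group-centred log2 values with 100000 permutations within groups, and the Dbp to Bmal1 ratio an exact permutation test. Alternatives were other pseudocounts (0.5 and 10), filters (none and 50), scalings and variance models, array weights, covariates of Y-linked, muscle and rod genes, other sets of libraries, and each library left out in turn.

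The members and lists were chosen with earlier results of these data known. Of the lists, 2 genes are not reported here. The genes named are all members, the genes of the clock and glucocorticoid lists, the genes that share exon bases with a member, and the 10 genes most like the members and the 5 least like them. Marker lists are given by their sums and leading genes. The average genotype effect, the correlations with markers and between members, and the fits without libraries 14, 15 and 18 were added after seeing the data. Figures were drawn with matplotlib 3.10.9, and permutation tests ran in numpy 2.4.6 and scipy 1.17.1.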

Additional observations from a re-analysis of the deposited data

Results flagged for a closer look

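In 44 groups of values (the 10 clock genes and the Dbp to Bmal1 ratio in the 4 groups), 3 held a library whose gap to the nearest other was above Dixon's 95% critical value, which chance alone gives in about 1 in 20 groups. Per3 was 1855 normalized counts in wild type laser library 17. Cry1 was 1773 in Ceacam1-/- laser library 18, the library with the highest sum of rod markers. Dbp was 8451 in Ceacam1-/- library 25 without laser, the library with the highest sum of values and of muscle markers.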

How the results depend on the processing

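The count of members past the threshold was 0 in all 6 comparisons and differed from 0 as follows. With array weights it was 1 for genotype with laser (Per3, limma adjusted p = 0.0236), 2 for laser in wild type (Cry1 and Cry2) and 2 for genotype over both laser labels (Per1 and Per3), where 1.5%, 32.6% and 0.842% of all genes were called. For laser in wild type it was 2 with the muscle covariate and 1 (Cry1) with only the groups compared, where 3584 of 19950 and 2274 of 19529 genes were. With each library left out in turn it ranged from 0 to 1 (Per3, without library 17, where 0.127% of all genes were called) for genotype with laser. The correlation with Bmal1 passed for 3 members, and for 5 without libraries 14, 15 and 18, where 23.4% and 21.8% of all genes had an r as far from 0. With single libraries left out it passed for 3 to 4. Nr1d1 passed without library 15 or 18 (adjusted permutation p = 0.0491 and 0.0372) and with upper-quartile scaling (adjusted permutation p = 0.0325). Nr1d2 passed without library 19 (adjusted permutation p = 0.0450). The difference in the Dbp to Bmal1 ratio between genotypes with laser turned from -0.50 to 0.36 without these 3. With single libraries left out the difference was 0.16 to 1.24 between genotypes without laser, -0.77 to -0.26 between genotypes with laser, 1.33 to 1.97 for laser in wild type, and -0.12 (without library 23) to 0.96 for laser in Ceacam1-/- mice.

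The signs of small fold changes were not stable. Over the 10 members in 6 comparisons, 95 of 2000 alternative values had the other sign, and each of the 10 members changed sign in some comparison. For genotype without laser, the log2 fold change with the rod covariate was 0.020 for Cry1, -0.018 for Nr1d1, 0.029 for Nr1d2 and -0.016 for Dbp. It was -0.15 for Nr1d1 with array weights and 0.0022 for Tef with upper-quartile scaling. With single libraries left out it ranged from -0.15 to 0.44 for Dbp, from -0.083 to 0.24 for Nr1d1, from -0.42 to 0.070 for Nr1d2, from -0.20 to 0.29 for Per2 and from -0.18 to 0.082 for Tef. For genotype with laser it was -0.015 for Nr1d2 with array weights, -0.16 for Ciart without libraries 14, 15 and 18, and -0.053 to 0.16 for Dbp with single libraries left out. For laser in wild type it was 0.095 for Per1, 0.060 for Per2, -0.015 for Nr1d1 and 0.28 for Bmal2 with array weights. Upper-quartile scaling gave 0.00076 for Per2 and 0.022 for Bmal2, quantile normalization 0.0890 for Bmal2 and the muscle covariate 0.0899 for Bmal2. With single libraries left out it ranged from -0.31 to 0.18 for Per2, from -0.31 to 0.039 for Ciart and from -0.17 to 0.23 for Bmal2. For laser in Ceacam1-/- mice it ranged from -0.21 to 0.24 for Cry1, from -0.44 to 0.047 for Bmal1 and from -0.26 to 0.12 for Clock. The interaction for Per1 was -0.033 with upper-quartile scaling, -0.49 with array weights, -0.020 with the Y-linked covariate, and -0.12 to 0.22 with single libraries left out. The causes were not tested. Of 1774 alternative values of single genes and correlations, 61 changed sign, 4 lost the threshold and 36 came to pass it. No paired analysis was possible because the groups share no replicate numbers. The depth behind the values is unknown.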

Other observations

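Among 13967 genes with a mean of at least 100 normalized counts, those whose group-centred values over 24 libraries had the highest Pearson's r with the mean z-score of the 10 clock genes were Zyg11b (0.81), Tgfbrap1 (0.76), Usp32 (0.75), Wdr33 (0.73), Scyl3 (0.73), Nyap2 (0.72), Nmnat2 (0.71), Rrm2b (0.71), Cul4a (0.71) and Tmem8b (0.71). The 5 with the lowest r were Cd9 (-0.71), Cd14 (-0.70), Nans (-0.70), Gmnn (-0.68) and Tnfrsf12a (-0.68). These values were picked as the extremes of all genes and carry no test. The libraries share their tissue makeup and scaling. Zyg11b and Cul4a encode parts of ubiquitin ligases, Cd14 is a receptor of myeloid cells, and Gmnn encodes an inhibitor of DNA replication licensing.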
